A study of Mus musculus with 7 samples.

Results

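The cytosolic ribosomal protein genes encode the structural proteins of the large and small ribosomal subunits, and they were followed here in whole colon tumors from mice that carried either Dnmt3a(+/-) or Dnmt3a(+/+) bone marrow (BM). Members were the protein-coding genes of the deposited count table whose symbol is Rpl or Rps followed by a number (with an optional a, l or x), the stalk genes Rplp0, Rplp1 and Rplp2, and Rpsa; pseudogenes with a -ps name and the Rps6k kinases were left out. This gave 80 of 43346 genes, 49 of the large and 31 of the small subunit, spread over 19 chromosomes, with 14 on chromosome 7. Of the 80, 78 had enough reads to be tested (47 large, 31 small), and the 2 that did not, Rpl10l and Rpl39l, are paralogs of Rpl10 and Rpl39. Rps4l and Rpl6l match the name pattern but are annotated as pseudogenes, and they were not counted as members.

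The study asked how clonal hematopoiesis driven by Dnmt3a loss in blood cells relates to colitis-associated cancer. The donors had a C57BL6/J background, and the recipients were of a congenic strain. Donors were Dnmt3a+/fl or Dnmt3a+/+, and both carried Mx1-Cre, a recombinase under an interferon-inducible promoter that was switched on with poly(I:C). Their marrow was given to lethally irradiated congenic wild-type CD45.1 recipients, 8 weeks old by the labels and younger by the study's methods, so the Dnmt3a deletion is in the graft and not in the host's epithelium or stroma. Colon tumors were induced in all recipients with a mutagen, azoxymethane (10 mg/kg, given once), and with dextran sulfate sodium, which injures the epithelium (3% for 1 week, then 2 weeks off, for 3 cycles). Polyadenylated RNA was sequenced from 3 whole tumors with Dnmt3a(+/+) BM and 4 with Dnmt3a(+/-) BM. Their sample descriptions begin with BMT18 (replicates 1 and 2 of both groups) or BMT8 (replicate 3 of both groups and Dnmt3a(+/-) BM replicate 4). These prefixes were read here as 2 transplantation experiments, which is an inference from the labels. Both sexes were used, and the sex of each tumor's host is not in the labels. The labels do not name the host of each tumor, and the study's text counts as many mice as tumors, in a single passage with the group sizes exchanged. The sample descriptions carry a number that differs for each of the 7 tumors. In Dnmt3a(+/-) BM replicates 2, 3 and 4, and in no other tumor, a further 2 follows it. What these numbers stand for is not stated there.

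Each ribosome holds 1 copy of nearly every one of these proteins, except that the stalk of the large subunit holds several copies of Rplp1 and Rplp2, and the genes are therefore expressed at high and similar levels in all cells that make protein. Their mRNAs begin with a run of pyrimidines, the 5' terminal oligopyrimidine (TOP) motif, through which the kinase complex mTORC1 and the RNA-binding protein LARP1 control their translation and stability. Proliferating crypt cells of the colon make ribosomes at a high rate. Several members act outside the ribosome: Rpl5 and Rpl11 bind Mdm2 and so stabilize p53 when ribosome assembly fails.

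Runs of pyrimidines near annotated starts were read from RefSeq promoter sequences on GRCm38.p6. These held 60 of the 80 members (58 of those tested). The search also took in bases ahead of the annotated start, which are not in the mRNA. Its counts are therefore not counts of TOP motifs. A run of at least 8 C or T on the coding strand, within 50 bases of any annotated start of the gene, was present in 50 of the 58 tested members (86.2%), 32 of 35 of the large (91.4%) and 18 of 23 of the small subunit (78.3%), against 39.3% of all 27025 genes in the promoter table. The windows below run from 15 bases before the annotated start to 14 bases after it, and capitals mark the longest pyrimidine run in the window. The first 10 were chosen to show long runs at the start in both subunits and the pair Rps27 and Rps27l, and the last 3 are the members whose tumor values did not overlap between groups.
Rpl7a (chr2:26910792-26910821, plus strand): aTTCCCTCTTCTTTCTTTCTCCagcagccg
Rpl27a (chr7:109519180-109519209, plus strand): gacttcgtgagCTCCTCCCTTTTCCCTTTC
Rpl15 (chr14:18270972-18271001, minus strand): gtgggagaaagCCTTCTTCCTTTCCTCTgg
Rpl13a (chr7:45128731-45128760, minus strand): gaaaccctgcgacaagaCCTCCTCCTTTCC
Rplp2 (chr7:141447636-141447665, plus strand): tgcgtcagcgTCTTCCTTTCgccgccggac
Rps10 (chr17:27635230-27635259, minus strand): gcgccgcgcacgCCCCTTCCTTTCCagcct
Rps18 (chr17:33955651-33955680, minus strand): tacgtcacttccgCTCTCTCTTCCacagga
Rps6 (chr4:86857353-86857382, minus strand): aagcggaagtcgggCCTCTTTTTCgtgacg
Rps27 (chr3:90213634-90213663, minus strand): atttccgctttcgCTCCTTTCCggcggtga
Rps27l (chr9:66946071-66946100, plus strand): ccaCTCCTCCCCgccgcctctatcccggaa
Rpl9 (chr5:65391417-65391446, minus strand): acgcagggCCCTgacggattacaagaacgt
Rplp0 (chr5:115559452-115559481, plus strand): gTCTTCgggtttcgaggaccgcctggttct
Rps7 (chr12:28635939-28635968, minus strand): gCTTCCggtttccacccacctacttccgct
Rpl7a carried the longest run, 21 bases. The run of Rps6, 10 bases, begins 1 base before the annotated start. The windows of Rpl9, Rplp0 and Rps7 hold no run over 5 bases at these annotated starts, which says only that these letters are not in these windows. Short runs are not particular to these 3 members. Among members not shown, the longest run in the window was 4 bases in Rpl5, 3 in Rps3 and 4 in Rps4x. Rps27 and Rps27l both show a run of 9 bases, which in Rps27l lies ahead of its annotated start.

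Motifs of factors known to bind at such promoters were then searched on both strands over the 300 bases from 250 before to 50 after each start. The ETS-type motif CCGGAAG was found in 24 of 58 tested members (41.4%; 40% of the large, 43.5% of the small subunit) and in 9.93% of all genes in the table. The Sp1 motif GGGCGG was found in 35 of 58 (60.3%) against 38.2%, and the YY1 motif AAGATGGC in 5 of 58 (8.62%) against 3.19%. The last 3 letters of the ETS-type motif are the first 3 of the YY1 motif, so that one stretch can hold both, and a match is a description of letters, not of binding. The 120 bases before the start of Rps6, whose protein is phosphorylated downstream of mTORC1, and of Rps7 are shown with ETS-type matches in capitals (CTTCCGG is the same motif on the other strand).
Rps6 (chr4:86857368-86857487, minus strand): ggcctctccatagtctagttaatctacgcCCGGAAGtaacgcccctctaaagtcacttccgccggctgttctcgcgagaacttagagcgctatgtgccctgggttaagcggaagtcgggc
Rps7 (chr12:28635954-28636073, minus strand): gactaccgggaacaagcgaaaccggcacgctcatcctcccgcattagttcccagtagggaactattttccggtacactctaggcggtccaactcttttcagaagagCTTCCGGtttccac

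Total counts ranged from 38472738 to 64314999 per tumor. Colon epithelium was present in each: all 14 of its listed markers were tested, and their summed CPM (counts scaled to a common library size with edgeR's TMM factors) ranged from 11749 to 40249. Dnmt3a itself, deleted only in the graft, was at 20.3 to 24.3 CPM in the Dnmt3a(+/+) BM tumors and at 22.0 to 43.0 CPM in the Dnmt3a(+/-) BM tumors (log2 fold change 0.43, SE 0.24, adjusted p = 0.542 by edgeR's quasi-likelihood test), which in whole tumors is no check of the genotype.

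Ribosomal protein genes took up between 6.21% and 8.526% of all counts in a tumor. With Dnmt3a(+/+) BM their share was 7.78%, 7.07% and 8.25% in replicates 1 to 3, and with Dnmt3a(+/-) BM it was 6.64%, 6.21%, 7.04% and 8.526% in replicates 1 to 4. The 3 lowest shares were all from Dnmt3a(+/-) BM tumors, but the highest was too, so the groups overlapped (7.70 ± 0.59% (SD, n = 3) and 7.10 ± 1.01% (SD, n = 4)). The large subunit held 4.15% to 4.77% of the counts with Dnmt3a(+/+) BM and 3.66% to 5.01% with Dnmt3a(+/-) BM. The small subunit held 2.92% to 3.48% and 2.55% to 3.51%. The 2 subunits kept close to 1 proportion: the ratio of the large to the small share stayed between 1.37 and 1.44 over all 7 tumors, 1.39 ± 0.03 (SD, n = 3) with Dnmt3a(+/+) BM and 1.43 ± 0.01 (SD, n = 4) with Dnmt3a(+/-) BM. Adding the ribosomal proteins and paralogs that the naming rule leaves out (Fau, Rack1 and others) raised the shares to 6.63% to 9.06%. The -ps pseudogenes, with which some members can share reads, added between 0.0295% and 0.0398%.

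**Figure D1:**
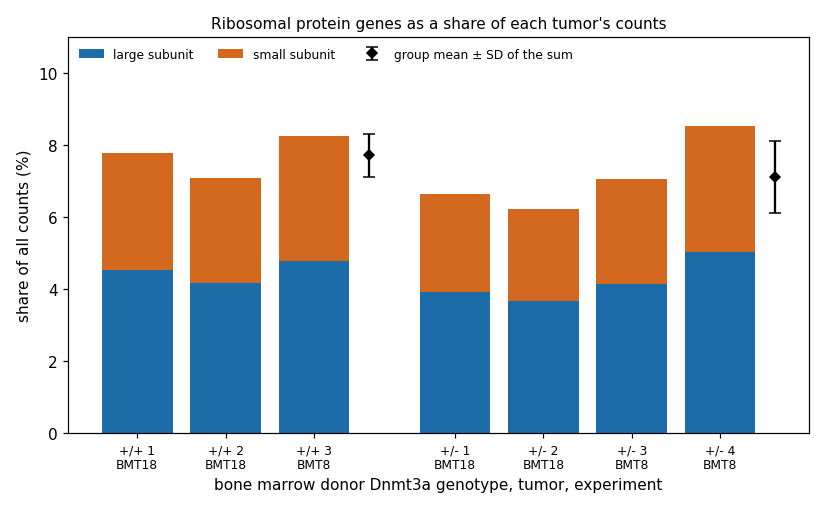
Share of all counts (%, vertical axis) taken by large subunit (blue) and small subunit (orange) genes in each of the 7 tumors, with the group mean ± SD of the summed share as a black diamond. Dnmt3a(+/-) BM replicate 4, at 8.526%, lies above all 3 Dnmt3a(+/+) BM tumors, and the other 3 Dnmt3a(+/-) BM tumors, at 6.21% to 7.04%, lie below them.

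Per length of transcript the members were expressed at similar levels, with exceptions at both ends. The median member stood at 1143 CPM per kb, with the middle 50% of the tested members from 870 to 1443. In the large subunit the highest were Rplp1 (3133 CPM per kb) and Rplp0 (2292) of the stalk that recruits elongation factors, Rpl13a (2440), Rpl41 (2178), which encodes the smallest ribosomal protein, and Rpl23a (1676), a protein at the exit of the nascent chain. In the small subunit the highest were Rps14 (5586 CPM per kb), Rps18 (2434), Rps2 (2385), Rps12 (2213) and Rps15 (1944). Rps14 was the highest of all 80. Levels of this kind depend on which transcript sets the length. Rps20 came out at 153.9 CPM per kb with a coding transcript of 3706 bases, the longest of any member, and this value was not read further.

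The paralogs were uneven. Rpl3l, a form of Rpl3 that is known from heart and skeletal muscle, was at 0.18 CPM per kb, against 1057 for Rpl3. Its CPM was 0.54, 0.37 and 0.06 in Dnmt3a(+/+) BM replicates 1 to 3 and 0.65, 0.06, 0.04 and 0.05 in Dnmt3a(+/-) BM replicates 1 to 4, which is between 2 and 26 reads a tumor. The 3 tumors in which it was highest were also the 3 with the most skeletal and heart muscle marker RNA: the summed CPM of that list was 61.8, 41.1 and 1.93 with Dnmt3a(+/+) BM and 86.7, 3.61, 7.66 and 4.43 with Dnmt3a(+/-) BM, in the same order of replicates. The part of muscle tissue in the Rpl3l values was not tested. Rpl10l, known from testis, had 0 reads in all 7 tumors, while Rpl10 stood at 1101 CPM per kb. Rpl39l had 1 read in 1 tumor, while Rpl39 stood at 467 CPM per kb. Rps27l, a p53-inducible paralog, was the exception in the other direction: at 281 CPM per kb it was above Rps27, at 168. Rps27 has near-identical copies in the genome, among them Rps27rt (13.4 ± 3.42 CPM (SD, n = 3) with Dnmt3a(+/+) BM), so its level rests on how the reads were divided. Rps4x, the X-linked form, was at 1416 CPM per kb.

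**Figure D2:**
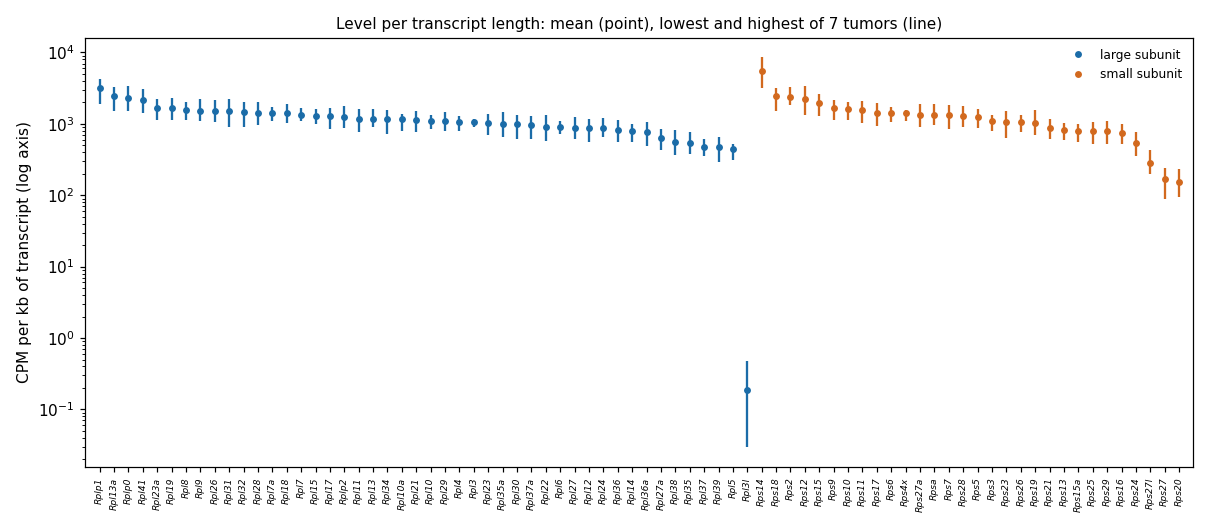
CPM per kb of transcript (vertical log axis) of 76 of the 78 members with a value above 0 in every tumor, ordered by level within the large (blue) and small (orange) subunit. Points are means over 7 tumors and lines run from the lowest to the highest tumor. Most members lie within a narrow band around the median of 1143, Rps14 lies above it at 5586, and Rpl3l lies far below all others at 0.18.

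The comparison between the groups asks whether the mutant graft changes the ribosomal protein mRNAs of the tumors. A call needed both an adjusted p under 0.05 and a change of more than 1 on the log2 scale, and edgeR's quasi-likelihood test called 0 of 78 members and 0 of 15810 genes (0% background). The lowest adjusted p of a member by this test was 0.42. At an unadjusted p under 0.05 were 4 members (5.13%), all lower with Dnmt3a(+/-) BM. The background at that p was 5.2% of all genes lower and 5.83% higher, so the members' share of lower genes was near the background. DESeq2 also called 0 members (background 1.83%, over 16377 genes). Among members its smallest adjusted p was 0.172, and 4 were lower at an unadjusted p under 0.05. The background for that p, 3.44%, was counted over 24067 genes and not over the 15810 that passed edgeR's filter. It is therefore not a like background for the 78 members, and no enrichment can be read from it.

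The estimates nevertheless all pointed one way. The log2 fold change was below 0 for 78 of 78 members, against a background of 49.8% of all genes tested. Its median was -0.28, against 0.00 for all genes, with the middle 50% of members between -0.34 and -0.21 and the whole range from -0.71 (Rpl3l) to -0.08 (Rpl38). Single standard errors had a median of 0.25, about as large as the estimates. The members are counted on the same 7 tumors and vary together, so that 78 signs are not 78 observations. The size of the members' median also depended on the scaling and on single tumors, as given below. Were the shift real, fewer cells that make many ribosomes and less ribosomal protein mRNA per cell could not be told apart in whole tumors.

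The large and the small subunit gave similar estimates. The median log2 fold change was -0.28 over the 47 large subunit genes and -0.31 over the 31 small subunit genes, a difference of 0.03 that was not tested. The mean log2(CPM + 1) of the large subunit members minus that of the small subunit members was -0.12, -0.10 and -0.15 with Dnmt3a(+/+) BM and -0.10, -0.09, -0.12 and -0.11 with Dnmt3a(+/-) BM. The sign was set by Rpl3l, a large subunit paralog at a very low level: without it, a choice made after seeing the data, the differences were 0.08, 0.09 and 0.06 with Dnmt3a(+/+) BM and 0.09, 0.11, 0.08 and 0.10 with Dnmt3a(+/-) BM. By medians, the large subunit lay above the small one in 5 of 7 tumors. With and without Rpl3l, the differences overlapped between the groups, and their spread within a group (pooled SD 0.02 with Rpl3l and 0.01 without) was small beside that of the subunit means themselves (pooled SD 0.30 for the large and 0.32 for the small subunit).

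**Figure D3:**
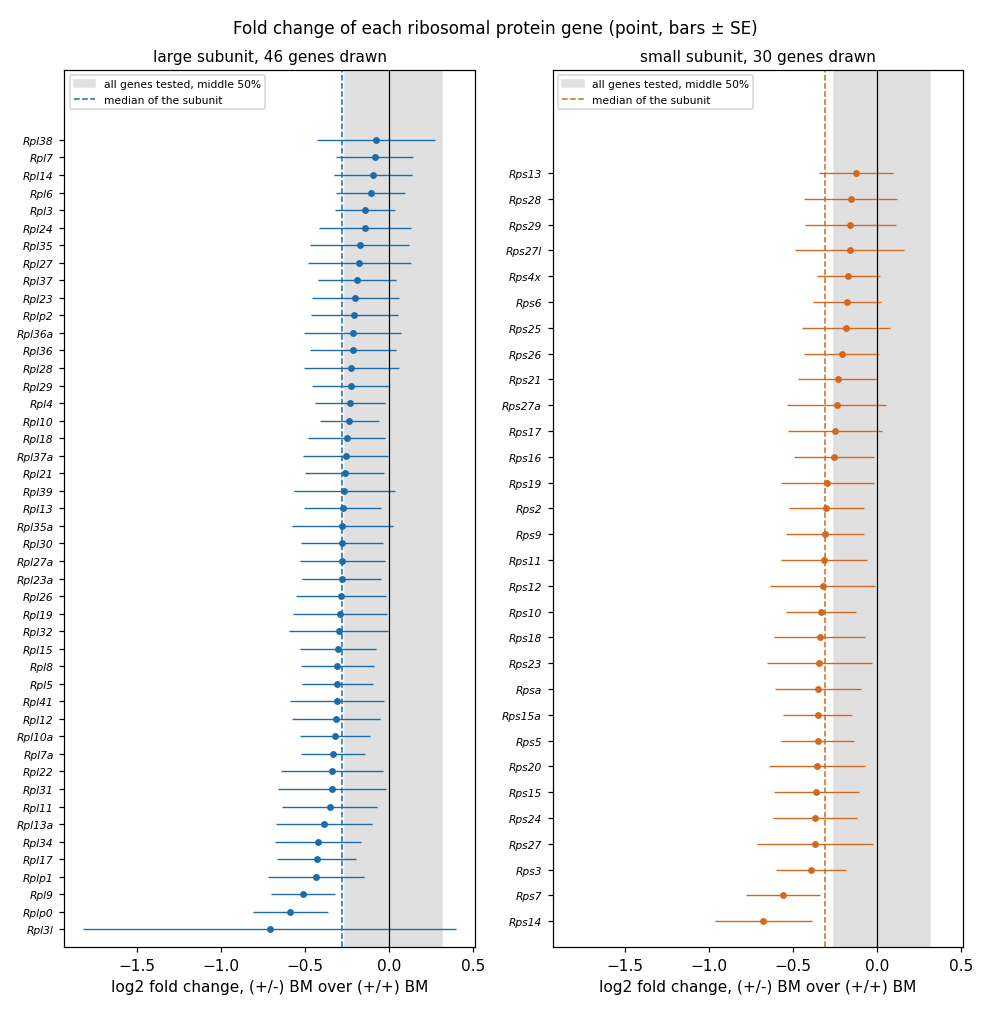
Log2 fold change of Dnmt3a(+/-) BM over Dnmt3a(+/+) BM (horizontal axis) for 76 of the 78 tested members, of the large (left) and small (right) subunit, with bars of ± 1 SE. The dashed line is the subunit's median and the grey band holds the middle 50% of all genes tested. All points lie below 0, between -0.71 and -0.08.

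Rpl9, Rplp0 and Rps7 were the 3 members whose groups did not overlap, all with lower values with Dnmt3a(+/-) BM. They are 3.85% of the tested members, below the background of 6.32% of all genes. Their number is thus no result about the family, and their values are given as a description. None was higher without overlap (background 6.12%). Rplp0 (chr5:115559467-115563727) encodes the base of the stalk. Its CPM was 4535, 3657 and 3349 with Dnmt3a(+/+) BM and 2878, 2038, 2485 and 2846 with Dnmt3a(+/-) BM. The lowest of the first group was thus 3349 and the highest of the second 2878, a log2 fold change of -0.59 (SE 0.23, unadjusted p = 0.0327, adjusted p = 0.422 by edgeR's test).

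Rpl9 (chr5:65388364-65391444), a protein of the large subunit near the stalk base, was at 1497, 1152 and 1118 CPM with Dnmt3a(+/+) BM and at 948, 741, 884 and 948 CPM with Dnmt3a(+/-) BM. On the log2 scale it changed by -0.51 (SE 0.19, unadjusted p = 0.0291, adjusted p = 0.42 by edgeR's test). Rps7 (chr12:28630854-28635953), a small subunit protein that can bind Mdm2, was at 1497, 1199 and 1274 CPM with Dnmt3a(+/+) BM and at 945, 684, 821 and 1137 CPM with Dnmt3a(+/-) BM. Its groups were separated by little, 1199 against 1137, and the log2 fold change was -0.56 (SE 0.22, unadjusted p = 0.0352, adjusted p = 0.428 by edgeR's test).

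Rps14 (chr18:60747098-60778546), the small subunit gene lost in the 5q- syndrome of human bone marrow, had the fourth unadjusted p under 0.05. It was at 5117, 3256 and 4358 CPM with Dnmt3a(+/+) BM and at 2502, 1922, 2474 and 3714 CPM with Dnmt3a(+/-) BM, which gave a log2 fold change of -0.68 (SE 0.29, unadjusted p = 0.0485, adjusted p = 0.45 by edgeR's test). Here 1 tumor of the second group, replicate 4, lay above 1 tumor of the first. Among the next lowest p-values, Rpl17 had a log2 fold change of -0.43 (SE 0.24), Rps3, which also repairs DNA, of -0.39 (SE 0.21) and Rps15a of -0.35 (SE 0.20), with unadjusted p-values from 0.0938 to 0.122.

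Some members have known roles beyond the ribosome. Rpl5, which binds Mdm2 together with Rpl11, was at 943 to 1067 CPM with Dnmt3a(+/+) BM and 642 to 1072 with Dnmt3a(+/-) BM (log2 fold change -0.31, SE 0.21). Its partner Rpl11 was at 935 to 1361 and 635 to 1306 CPM (-0.35, SE 0.28). Both overlapped between the groups. Rpsa, which is also the laminin receptor, had a log2 fold change of -0.35 (SE 0.26), and Rps19, mutated in Diamond-Blackfan anemia, of -0.30 (SE 0.28). Rps27a, made as a fusion with ubiquitin, was at -0.24 (SE 0.29).

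The other stalk genes, Rplp1 and Rplp2, were at -0.43 (SE 0.28) and -0.21 (SE 0.26). Rps6, the target of S6 kinase, was at -0.18 (SE 0.20). Its CPM of 1232 to 1496 with Dnmt3a(+/+) BM and 922 to 1401 with Dnmt3a(+/-) BM overlapped. Rpl3 was at -0.14 (SE 0.18), Rpl10 at -0.24 (SE 0.18), Rpl39 at -0.27 (SE 0.30), Rps4x at -0.17 (SE 0.19), Rps27 at -0.37 (SE 0.35) and Rps27l at -0.16 (SE 0.32). For Rpl3, Rplp2, Rps27l, Rps4x and Rps6 the estimate was above 0 with library size as the only scaling. The members with the highest level per length, apart from those above, lay between -0.39 (Rpl13a) and -0.28 (Rpl23a).

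The members moved largely together from tumor to tumor. Dnmt3a(+/-) BM replicate 2 was the lowest of the 7 tumors for 76 of 78 members, where it was the lowest for 25.3% of all genes. Dnmt3a(+/+) BM replicate 3 was the highest for 65 members, against 18.3% of all genes. Which tumor is at the top depends on the scaling. By share of all counts, Dnmt3a(+/-) BM replicate 4 (8.526%) lay above Dnmt3a(+/+) BM replicate 3 (8.25%). Their TMM factors, by which the CPM are divided, were 0.962 and 0.845. Dnmt3a(+/+) BM replicate 1 was highest for 7 members and Dnmt3a(+/-) BM replicate 4 for 5. The latter stood out from its group: it was below Dnmt3a(+/+) BM replicate 2 for 4 of 78 members only and below replicate 1 for 18, while Dnmt3a(+/-) BM replicate 2 was below them for 78 and 77. The log2(CPM + 1) of a member had a median SD of 0.35 over the 7 tumors, near the 0.33 of all genes tested. After subtracting each tumor's median over the members, the median SD of the members was 0.12. Rpl23a (SD 0.03) and Rps9 (0.04) followed the family most closely, and Rpl3l (0.44), Rps27l (0.31), Rpl38 (0.29), Rplp0 (0.28) and Rpl9 (0.26) least.

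**Figure D4:**
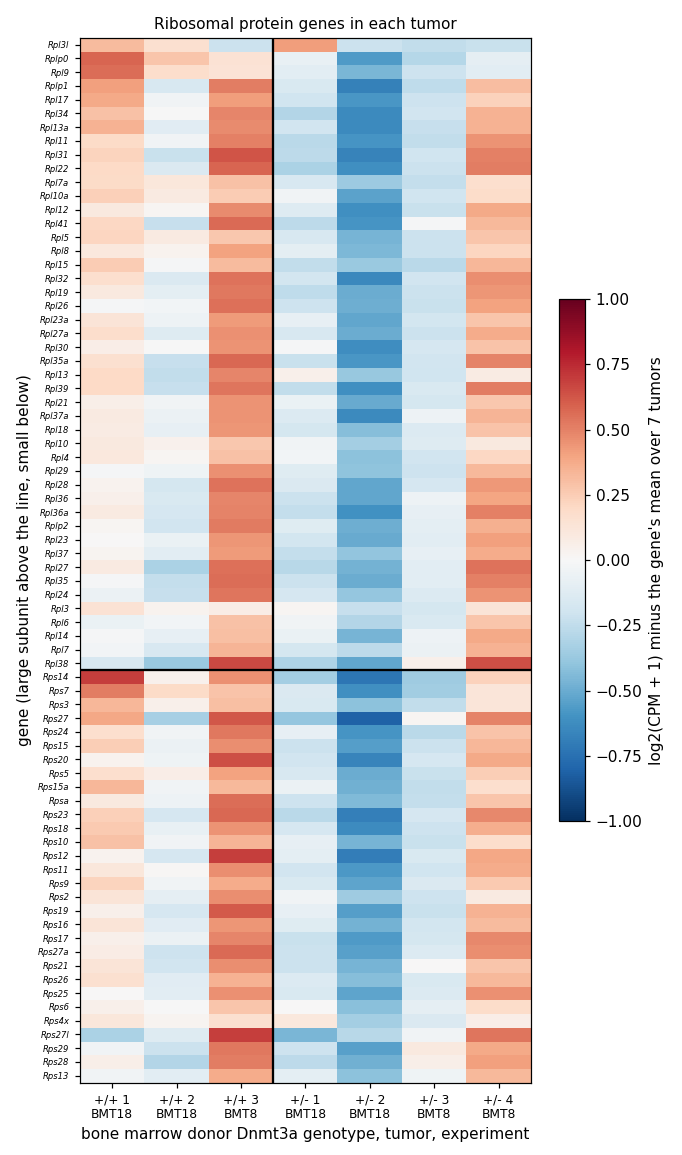
Log2(CPM + 1) minus the gene's own mean over the 7 tumors (color) for 76 of the 78 tested members (rows, large subunit above the line, ordered by fold change) in each tumor (columns, Dnmt3a(+/+) BM left of the line). Dnmt3a(+/-) BM replicate 2 is the lowest column for nearly all rows and Dnmt3a(+/+) BM replicate 3 the highest for most, and Dnmt3a(+/-) BM replicate 4 resembles the high columns.

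The markers of colon epithelium moved in the same order at the ends. Their summed CPM was 20913, 26989 and 40249 in Dnmt3a(+/+) BM replicates 1 to 3 and 15901, 11749, 19857 and 25570 in Dnmt3a(+/-) BM replicates 1 to 4, so the tumor with the lowest and the tumor with the highest sum were also those with the lowest and the highest mean log2 CPM of the members (8.99 and 9.94). Of the 14 markers, 13 had a log2 fold change below 0 and 0 were called by edgeR (3 at an unadjusted p under 0.05 by edgeR and by DESeq2, which called 0). Of these 3 by edgeR, 2 were lower and 1, Cdx2, an intestinal transcription factor, was higher (log2 fold change 0.79, SE 0.29). Fibroblast marker RNA ran the other way at the low end, with 1073 CPM in Dnmt3a(+/-) BM replicate 2 against 186 to 396 CPM in the other tumors. Endothelial marker RNA was at 17.2 to 29.7 CPM with Dnmt3a(+/+) BM and at 29.9 to 146 CPM with Dnmt3a(+/-) BM. All 8 endothelial markers had a log2 fold change above 0 (median 1.74), 5 of them at an unadjusted p under 0.05 by edgeR, which called 0, while DESeq2 called 3 higher. Leukocyte marker RNA was at 215 to 636 and 243 to 502 CPM. No epithelial, fibroblast, endothelial or leukocyte marker was at 0 in all tumors. The mitochondrially encoded share of counts was 2.11%, 2.21% and 4.50% in Dnmt3a(+/+) BM replicates 1 to 3 and 1.94%, 2.12%, 2.88% and 6.31% in Dnmt3a(+/-) BM replicates 1 to 4. It was highest in Dnmt3a(+/-) BM replicate 4 and Dnmt3a(+/+) BM replicate 3, which also had the highest ribosomal protein shares. The part of the tumors' cell makeup and of the mitochondrial share in the ribosomal protein values was not tested.

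The counts were also compared within each experiment. In BMT18, both Dnmt3a(+/-) BM tumors were below both Dnmt3a(+/+) BM tumors for 56 of 78 members, where 26.2% of all genes had that order. In BMT8, both Dnmt3a(+/-) BM tumors were below the single Dnmt3a(+/+) BM tumor for 72 of 78 members, 41 of 47 in the large and 31 of 31 in the small subunit, against 35.5% of all genes. No member had the opposite order in either experiment. The median log2 fold change was -0.34 in BMT18 and -0.36 in BMT8, with 0 members called and 0 at an unadjusted p under 0.05 in either (background 5.88% and 4.56% lower). With the experiment as a covariate over all 7 tumors, the median was -0.36, and 7 members were at an unadjusted p under 0.05, all lower (background 7.32%), again with 0 called (lowest adjusted p = 0.303 by edgeR's test).

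Single tumors set the size of the median. Without Dnmt3a(+/-) BM replicate 2 it was -0.14, and 72 of 78 members were below 0 (background 46.9%). Without Dnmt3a(+/+) BM replicate 3 it was -0.12, with 64 below 0 (background 48%). Without Dnmt3a(+/-) BM replicate 4 it was -0.46, and 15 members were at an unadjusted p under 0.05 (background 5.74%), with 0 called. Over the 7 fits that each left out 1 tumor, 64 of 78 members were below 0 in every one. These fits share most of their tumors, and the same count over all genes was not made. An offset for transcript length, which is short in this family, brought the median to -0.15, with 71 of 78 members below 0 (background 49.2%). With library size as the only scaling it was -0.08 and 59 members were below 0 (background 29.6%), and the median of all genes then moved to 0.21. Relative to all genes the members' median was -0.29 under both that scaling and TMM, and 78 of 78 lay below the median of all genes under both. A change of scaling moves all genes by nearly the same amount. The distance from all genes could therefore hardly differ between the scalings, and it is no separate check.

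**Figure D5:**
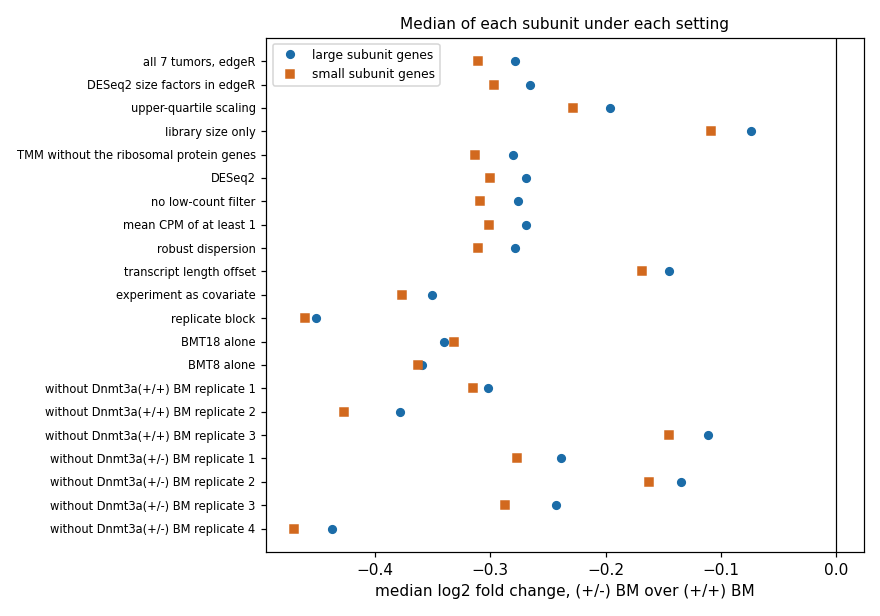
Median log2 fold change of the large subunit genes (blue circles) and the small subunit genes (orange squares) under each scaling, filter, tool or choice of tumors (rows). All medians lie below 0, the smallest in size are those with library size only, without Dnmt3a(+/+) BM replicate 3 and without Dnmt3a(+/-) BM replicate 2, and the 2 subunits lie close together in each row.

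Relative to the family, a few members kept apart. With each tumor's median over the members subtracted, Rps14 was lower in all 4 Dnmt3a(+/-) BM tumors than in the 3 Dnmt3a(+/+) BM tumors, by -0.36 on the log2 scale. Its distance above the family's median was 2.37, 1.95 and 1.88 with Dnmt3a(+/+) BM and 1.66, 1.67, 1.67 and 1.84 with Dnmt3a(+/-) BM. Rpl14, Rpl7, Rps13 and Rps26 were higher relative to the family in every Dnmt3a(+/-) BM tumor, by 0.11 to 0.25. These 5 genes were picked out after their values were seen, and the differences were not tested.

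Other genes of the translation machinery were read from lists in the same fit, and edgeR called none of them. The naming rule leaves out 10 tested ribosomal proteins and paralogs, some of them near copies of other genes. Of these 10, 9 had a log2 fold change below 0 (median -0.26), with 1 at an unadjusted p under 0.05 by edgeR's test. This was Rack1, the scaffold of the small subunit. It had a mean of 1943 CPM (SD 284, n = 3) with Dnmt3a(+/+) BM against 1320 CPM (SD 174, n = 4) with Dnmt3a(+/-) BM (log2 fold change -0.56, SE 0.20, adjusted p = 0.407 by edgeR's test). Fau, made as a fusion with a ubiquitin-like part, was at -0.30 (SE 0.23).

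Translation factors and other known TOP mRNAs did not share the direction as evenly. Of 24 tested, 16 were below 0 and 8 above (median -0.11, and 0.09 with library size only), with 2 at an unadjusted p under 0.05 in each direction. Eif3h and Eif3f, subunits of the initiation factor eIF3, were at -0.60 (SE 0.19) and -0.49 (SE 0.20). Vim, a TOP mRNA that marks mesenchymal cells, was at 1.42 (SE 0.39), and Nap1l1, a histone chaperone, at 0.51 (SE 0.18). Of the 24, DESeq2 called 1.

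The regulators of TOP mRNAs showed no common direction. Of 18 genes of the mTORC1 and LARP1 list, 10 were below 0 and 8 above (median -0.03, and 0.18 with library size only). The lowest p-values were those of Eif4ebp3, a repressor of cap-dependent translation (log2 fold change -1.17, SE 0.39, unadjusted p = 0.0175, adjusted p = 0.399 by edgeR's test), Rragc, a Rag GTPase (-0.33, SE 0.16), and Deptor, an inhibitor of mTOR (-0.52, SE 0.28). Eif4ebp3 overlapped between the groups, at 34.3, 34.2 and 11.9 CPM with Dnmt3a(+/+) BM and 10.9, 10.9, 16.5 and 9.17 with Dnmt3a(+/-) BM. In BMT8 the Dnmt3a(+/+) BM tumor (11.9) lay between the Dnmt3a(+/-) BM tumors (16.5 and 9.17).

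Of 33 ribosome biogenesis genes, 28 had a log2 fold change above 0 (median 0.16), with 1 at an unadjusted p under 0.05 in each direction. The sign of their median was not the same in both experiments: it was 0.30 in BMT18 alone and -0.08 in BMT8 alone. Myc, which drives transcription of this program, had a mean of 53.5 CPM (SD 0.40, n = 3) with Dnmt3a(+/+) BM against 74.2 CPM (SD 10.8, n = 4) with Dnmt3a(+/-) BM (log2 fold change 0.47, SE 0.15, unadjusted p = 0.013, adjusted p = 0.384 by edgeR's test). Polr1c, a subunit shared by RNA polymerases I and III, was at -0.33 (SE 0.13), and Polr1a, the largest subunit of RNA polymerase I, at 0.54 (SE 0.25).

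In the list of the p53 checkpoint, which contains 8 members of the family, 12 of 16 genes were below 0 (median -0.24), with 3 lower and 1 higher at an unadjusted p under 0.05. The 8 members were all below 0 and gave 2 of the 3 lower ones, Rps7 and Rps14. Of the other 8 genes, 4 were below and 4 above 0. Trp53 was at 0.55 (SE 0.17) and its target Cdkn1a at -0.57 (SE 0.20), and Rps7 is described above. Mitochondrial ribosomal proteins, encoded in the nucleus and built into a separate ribosome, were below 0 for 70 of 77 (median -0.16, but 0.05 with library size only and 0.01 without Dnmt3a(+/+) BM replicate 3), with 3 lower at an unadjusted p under 0.05: Mrpl9 (-0.46, SE 0.16), Mrps23 (-0.33, SE 0.12) and Mrps24 (-0.54, SE 0.21). Of 257 ribosomal protein pseudogenes in the table, 56 were tested and 41 were below 0 (median -0.20, and 0.01 with library size only). The lowest p-values there were those of Rpl31-ps8 (-0.60, SE 0.20), Rps23-ps1 (-0.48, SE 0.21) and Rpl15-ps3 (-0.58, SE 0.30), whose reads cannot be told apart from those of the parent genes with certainty.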

How the data were processed

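Per the labels, the authors processed reads with Trimmomatic, STAR and RSEM on mm10, and they deposited estimated counts per gene, as whole numbers (100% of values) and not normalized. RSEM divides reads among genes that share sequence. Symbols (42462 of 43346 genes), biotypes, positions and transcript lengths came from GENCODE M21 (GRCm38), and 0.104% of the counts fell on genes that have no symbol. For lengths, the shortest principal transcript of a gene was used. Groups were compared over all 7 tumors with edgeR 4.0.16 in R 4.3.3 (TMM, filterByExpr, quasi-likelihood test, Benjamini-Hochberg adjustment over 15810 genes, no covariate), with calls at an adjusted p below 0.05 together with a log2 fold change beyond 1 in either direction. DESeq2 1.42.0, other scalings and filters, a length offset, the experiment as a covariate, each experiment alone and each tumor left out were alternatives. The steps were tested on simulated data. CPM were scaled by TMM, and log2 CPM had a pseudocount of 1. No tumor was a duplicate (closest pair: Spearman 0.974, mean chi-square per gene 92.2).

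The members and lists were chosen with earlier results of these data known. Members named in the text were the 5 highest per length and the 4 with the lowest p in each direction and subunit, those without overlap, the stalk genes, Rpsa, Rps27a, Rpl5, Rpl11, Rps6, Rps19, the paralog pairs and those not tested, and the 3 lowest p-values of each other list. Members picked outside this rule are named as such or as the ends of a range. The depth of 38472738 to 64314999 counts sets the counting error, and whether PCR duplicates were removed is not given in the sources used here. Some genes that this rule names are not reported here and are not drawn in the figures, but they stay in the fits and counts.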

Additional observations from a re-analysis of the deposited data

Results flagged for a closer look

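In the group of 4 tumors, 47 values (named members, shares and marker sums) were screened for a tumor far from the other 3, and 3 stood out; chance alone gives about 1 in 20. The Rpl3l CPM of 0.65 in Dnmt3a(+/-) BM replicate 1 lay far above the 0.04 to 0.06 of the other 3 tumors of the group. The summed CPM of the skeletal and heart muscle markers was 86.7 in that same tumor, against 3.61 to 7.66 in the other 3. The summed CPM of the fibroblast markers was 1073 in Dnmt3a(+/-) BM replicate 2, against 263 to 396 in the other 3. No ribosomal protein share, subunit ratio or other named member stood out in this way. Groups of 3 were not screened.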

How the results depend on the processing

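Under the 20 alternatives, 0 members were called, and the median log2 fold change of all members, of the large and of the small subunit stayed below 0. For all members it ranged from -0.08 with library size only to -0.46 without Dnmt3a(+/-) BM replicate 4. Each median moved by less than the pooled SD between tumors (0.31 for all members). That SD is about as large as the medians themselves, so this limit could hardly be crossed and says little about stability. The number of members lower at an unadjusted p under 0.05, 4 with all tumors, was 2 with upper-quartile scaling, 0 with library size only, 7 with the experiment as covariate, 0 in BMT18 alone and 0 in BMT8 alone, and it ranged from 0 to 15 when 1 tumor was left out. The large minus small difference of medians, 0.03, was -0.01 (-0.0085) in BMT18 alone and 0.0033 in BMT8 alone. The replicate numbers do not pair the tumors (correlations of deviations 0.57, 0.07 and -0.04 for replicates 1 to 3). With a replicate block over the 6 tumors numbered 1 to 3 in both groups, 31 members were lower at an unadjusted p under 0.05. For these tumors without the block, 15 members were (background 5.74%). The share of all genes with the block was not counted, so the 31 members have no background beside them. With the block the difference of medians was 0.0093, and 0 members were called. Of 30 named members with a fit, 25 were below 0 under every alternative, a count that was not made over all genes. With library size only, Rpl3 was at 0.059, Rplp2 at 0.0042, Rps27l at 0.057, Rps4x at 0.032 and Rps6 at 0.025. With 1 tumor left out, Rplp2 ranged from -0.37 to 0.019 and Rps27l from -0.40 to 0.21, both above 0 without Dnmt3a(+/+) BM replicate 3. BMT8 alone rests on 1 Dnmt3a(+/+) BM tumor, assumed to vary like the others. The precision is limited by 3 and 4 tumors, with a median standard error of 0.25 on the log2 scale.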
